A study of Mus musculus with 12 samples.

Results

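S100 proteins are small calcium sensors with a pair of EF-hands, and the genes S100a1, S100a4, S100a6, S100a8, S100a9, S100a10, S100a11 and S100a13 were followed across the cells of PyMT breast tumors. The 8 genes were taken by name from the 31053 genes of the count matrices, which list 17 genes named S100. S100 proteins mostly act as dimers that bind a target when calcium rises, and several are also released and bind receptors such as RAGE and TLR4 on other cells. S100a8 and S100a9 pair as calprotectin, an abundant protein of the neutrophil cytosol. The others are known from motile, stromal and epithelial cells, where they bind annexins, myosin or the release machinery of leaderless cytokines.

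The study sequenced transcripts of single cells from mice with the MMTV-PyMT transgene, in which the mammary tumor virus promoter drives the polyoma middle T antigen and breast tumors arise spontaneously. All animals carried this transgene without additional treatment, and their F2rl1 gene, which encodes PAR2, was either wild-type or carried the G37I allele, which is resistant to signaling by coagulation factor Xa. Cells were selected with CD11c beads from late-stage tumors, as macrophages and dendritic cells, or with CD4/CD8 beads from mid-size tumors, as T cells, and were frozen before sequencing. There were 3 biological replicates per genotype and selection and 12 samples in all, and the labels state no ages.

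The barcodes of the 2 matrices name no sample, so wild-type and PAR2 G37I cells cannot be told apart, each matrix was treated as 1 sample without replicates, and no test was made. The matrices held 11639 CD11c-selected and 22806 CD4/CD8-selected cells with at least 200 detected genes, with medians of 7943 and 4361 UMIs per cell. A UMI marks 1 captured transcript. Levels are CPM, the UMIs of a gene per 1000000 UMIs over all cells of a gate, with exact 95% Poisson intervals that cover counting error only. Barcodes ran through the alphabet 6 times in each matrix, and the range over these barcode runs, which were linked to no sample, is given as a second view of the spread. In the CD11c matrix 76 barcodes occurred more than once, and in the CD4/CD8 matrix 51.

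Cells were assigned to 19 gates on raw UMIs of genes other than the members, for example Csf3r and Cxcr2 for neutrophils, and 24 gates with at least 30 cells, 12 per matrix, are described. In the 2 matrices 6201 and 5549 cells fell in exactly 1 of the 19 gates. Of 11 gates compared per matrix, 9 in the CD11c and 8 in the CD4/CD8 matrix had their own marker list highest. The exceptions were the other macrophages of both matrices, Retnla Ear2 myeloid cells (behind fibroblasts), and the progenitor exhausted and Itgae CD8 gates, so these names rest on the gating genes. Conventional CD4 cells are counted among the 8, but their marker list held Cd4, which also set the gate. Their first place was thus partly fixed by the gate.

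A single cell weighed on the neutrophil values. The neutrophil gate held 66 cells with a median of 3302 UMIs, the lowest of the 12 CD11c gates, and 38 of the cells came from barcode run 6. In this gate 1 cell had 88553 UMIs, which were 29.7% of the UMIs of the gate, with 370 UMIs of Epcam and 351 of Krt8, both epithelial genes. Neutrophil levels of the members are therefore given for all 66 cells and for the 65 cells without the Epcam-positive one.

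**Figure D1:**
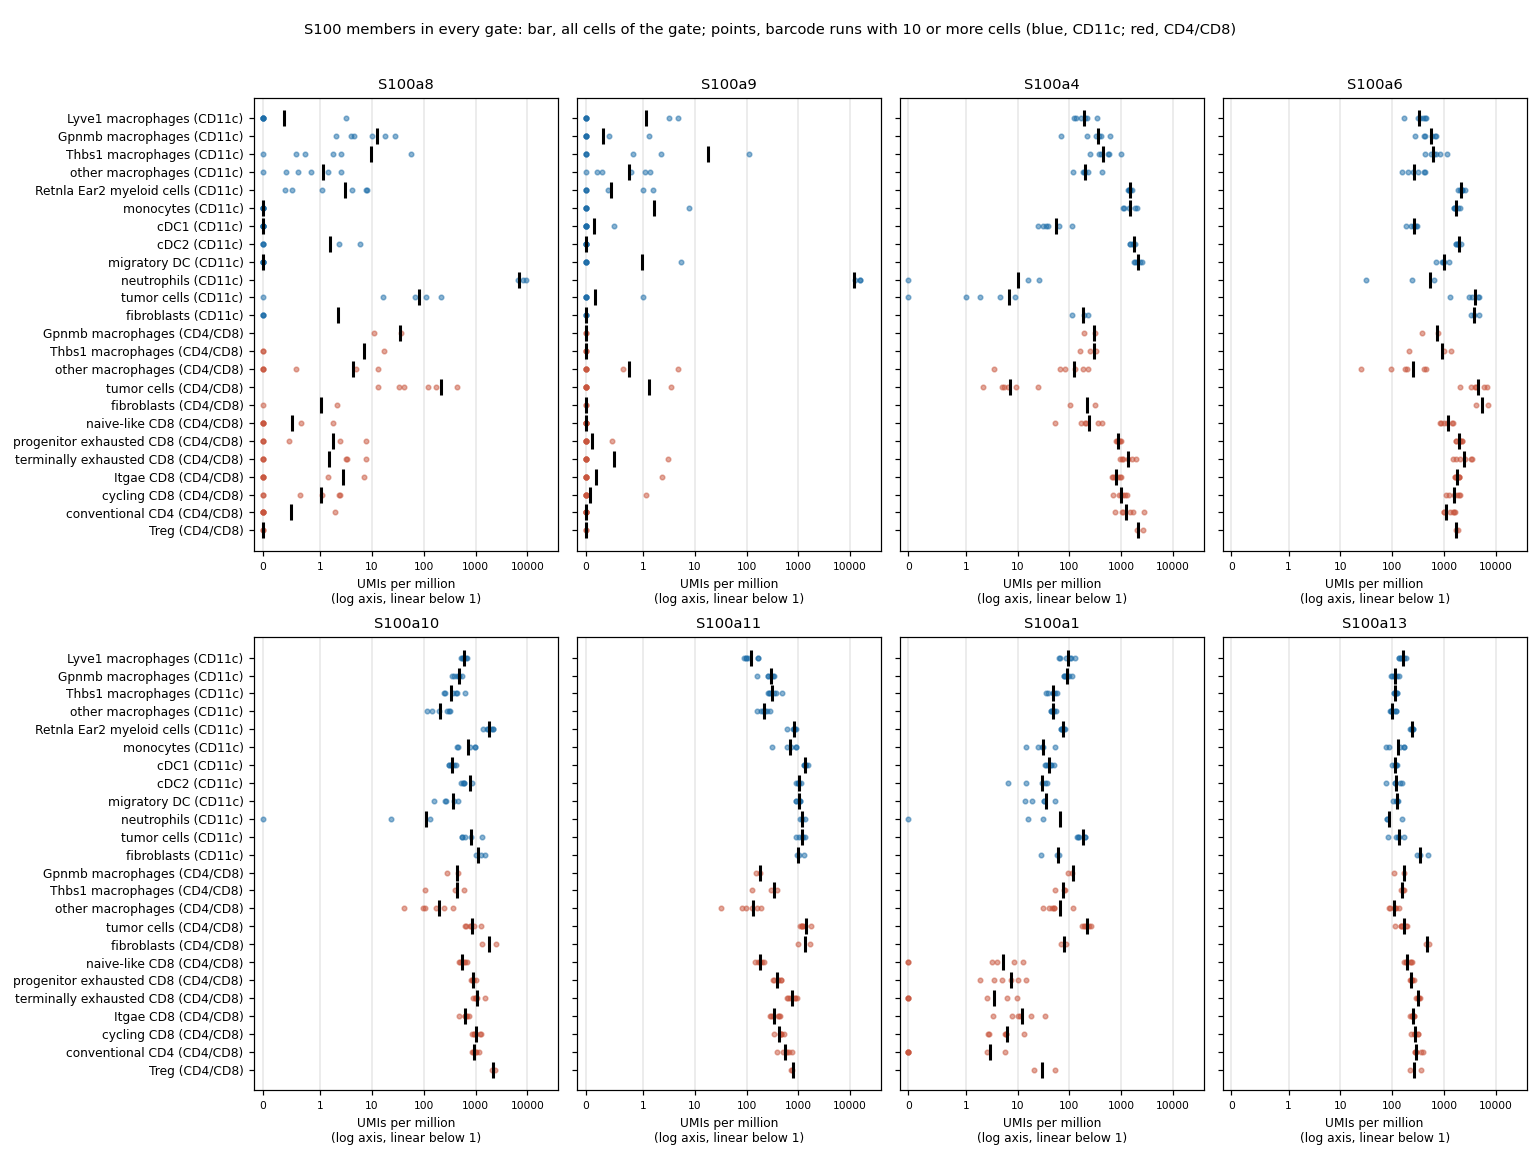
CPM (UMIs per 1000000, log axis, linear near 0) of the 8 members in the 24 gates. Bars give all cells of a gate and points give barcode runs with at least 10 cells, blue for CD11c-selected and red for CD4/CD8-selected cells, and S100a8 and S100a9 stand at 6893 and 12010.4 in neutrophils, whereas S100a13 stays between 87.3 and 462.

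S100a8 and S100a9, the calprotectin subunits, had their highest levels among the gates in neutrophils, but S100a8 also appeared without S100a9. The neutrophil gate held 2054 of the 5149 S100a8 UMIs and 3579 of the 7142 S100a9 UMIs of the CD11c matrix, and all gates of that matrix held 54.8% and 52.9%. The rest lay in cells of no gate, which are not described here. In the CD4/CD8 matrix tumor cells held 1657 of 2310 S100a8 UMIs. In neutrophils S100a9 reached 12010.4 (11620.1 to 12410.5) CPM, and 17036 (16482 to 17604) without the Epcam-positive cell. S100a8 reached 6893 (6598 to 7197), and 9716 (9299 to 10148) without that cell. The next highest gates lay far lower, at 215 (205 to 226) for S100a8 in CD4/CD8-selected tumor cells and at 17.7 (15.1 to 20.7) for S100a9 in CD11c-selected Thbs1 macrophages.

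Neutrophils carried both transcripts in most cells. S100a8 was detected in 60 of 66 cells and S100a9 in 57, and 56 cells held both. With each cell thinned to 1000 UMIs, S100a8 was found in 86.2% (exact 95% interval 75.3 to 93.5) and S100a9 in 83.1% (71.7 to 91.2) of 65 cells. cDC1, a dendritic cell that should lack calprotectin, held S100a8 in 0 of 374 cells, at a median of 16452.5 UMIs. A floor of 3 cells would be 0.802% of them, which is not an exact 95% limit. It is a share of cells with a UMI, not of cells that express the gene. The 3 runs with at least 10 neutrophils, runs 2, 5 and 6, gave S100a9 levels of 12466, 15876 and 15544 CPM. S100a8 levels in these runs were 8249, 6594 and 9349, and the S100a8 to S100a9 UMI ratio was 0.662, 0.415 and 0.601.

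Monocytes, gated on Ly6c2, Ccr2 and Csf1r, lacked the pair. They held 0 UMIs of S100a8 and 1 of S100a9 in 69 cells. Against the floor of 3 UMIs over the monocyte gate, S100a8 was at least 1428-fold higher in neutrophils, and at least 2013-fold without the Epcam-positive cell. Of the 7 members measurable between these gates, 5 differed by 2-fold or more, beside 27.7% of all genes tested. S100a8 and S100a9 were higher in neutrophils and S100a4, S100a6 and S100a10 were higher in monocytes. Without the Epcam-positive cell the count was again 5 of 7, beside 32.1% of genes.

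In tumor cells, gated on Epcam, Krt8 and Krt18 without Ptprc, S100a8 stood without its partner. Its level was 82.4 (75.4 to 89.8) CPM in CD11c-selected and 215 (205 to 226) in CD4/CD8-selected tumor cells, where S100a9 had 0.160 and 1.30. S100a8 made up 99.8% (98.9 to 100) and 99.4% (98.9 to 99.7) of the UMIs of the pair in these gates, against 36.5% (35.2 to 37.7) in neutrophils, with exact binomial intervals. The intervals of tumor cells and neutrophils did not overlap in either matrix. All 10 S100a9 UMIs of CD4/CD8-selected tumor cells were in 1 cell.

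The tumor cell signal was carried by few cells. S100a8 was detected in 44 of 258 and in 76 of 249 tumor cells, and the 10% of cells with the most S100a8 held 96.3% and 90.8% of its UMIs. At 1000 UMIs per cell the shares were 2.14% and 8.26%, whereas the T cell gates of the CD4/CD8 matrix, which should lack it, had between 0% and 0.229% (unthinned up to 1.23%). Median depths were 16501.5 and 20377 UMIs in tumor cells and between 4268 and 10751 in T cell gates. The level also differed between barcode runs, from 0 to 214 CPM among 5 runs of CD11c-selected and from 12.99 to 439.5 among 6 runs of CD4/CD8-selected tumor cells. Without barcode run 3 the CD4/CD8 value was 82.7. Among tumor cells without a UMI of Csf3r, Cxcr2, S100a9 or C1qa, the levels were 85.0 and 199. S100a9 was detected in only 1 tumor cell of each matrix, so the S100a9 limit left out few cells. The source of the S100a8 transcripts was not tested.

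**Figure D2:**
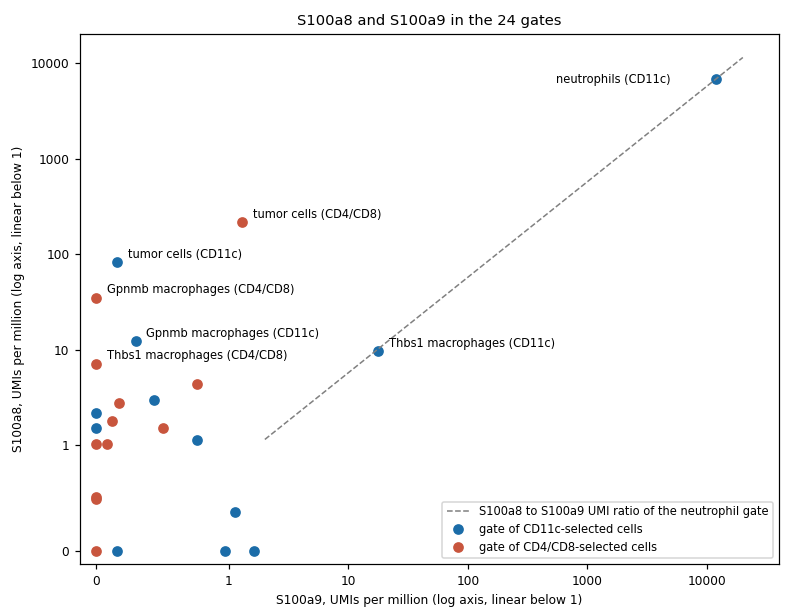
S100a8 against S100a9, both in CPM (log axes, linear near 0), with 1 point for each of the 24 gates, blue for CD11c-selected and red for CD4/CD8-selected cells. The dashed line is the S100a8 to S100a9 UMI ratio of neutrophils, 0.574, and Thbs1 macrophages of the CD11c matrix lie near it, whereas tumor cells and Gpnmb macrophages lie on the side of more S100a8.

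Macrophage gates differed in how the pair appeared. Thbs1 macrophages, gated on transcripts of thrombospondin and Vegfa, had S100a8 at 9.61 (7.67 to 11.9) and S100a9 at 17.7 (15.1 to 20.7) CPM in the CD11c matrix. Their UMI ratio of 0.541 was within the 0.415 to 0.662 of the 3 runs with at least 10 neutrophils, and the ratio over all neutrophils was 0.574 (0.543 to 0.606). These UMIs sat in 12 and 10 of 728 cells, and 77 of 85 S100a8 UMIs and 150 of 157 S100a9 UMIs were in barcode run 6, the run with the most neutrophils. In Thbs1 macrophages without a UMI of Csf3r or Cxcr2 the levels were 1.20 and 0.684.

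Gpnmb macrophages, gated on the lipid-handling genes Gpnmb and Trem2, held S100a8 with hardly any S100a9. S100a8 was at 12.2 (9.70 to 15.1) CPM in CD11c-selected and 34.7 (30.6 to 39.2) in CD4/CD8-selected Gpnmb macrophages, with 82 and 258 UMIs of S100a8 beside 2 and 0 of S100a9. In the CD4/CD8 matrix the UMIs were in 112 of 279 cells, with at most 21 in a cell. Tumor cells of that matrix had S100a8 in 76 of 249 cells, at a median of 20377 UMIs, with most of the UMIs in few of them. Thinned to 1000 UMIs per cell, a larger share of tumor cells than of Gpnmb macrophages held S100a8. Other macrophages of that matrix had S100a8 in 3.74% of cells against 40.1% in Gpnmb macrophages, at medians of 12055.5 and 25623 UMIs. At 1000 UMIs per cell the shares were 0.270% (0.00684 to 1.50) and 2.88% (1.25 to 5.59), whose intervals overlapped. In the CD4/CD8 matrix 244 of the 279 cells came from barcode run 3, which also had the highest S100a8 level in tumor cells. The summed tumor cell markers were at 5.80 and 13.1 CPM in these macrophages and at 4959.6 and 4911 in tumor cells of the same matrices.

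All 8 genes lie on chromosome 3 within 3054 kb of GRCm38. S100a8 (90668978 to 90670035, plus strand) and S100a9 (90692632 to 90695721, minus strand) have 22596 bases between them. Their upstream sequences are shown because the genes were together in neutrophils and apart in tumor cells, and are taken from RefSeq promoters on GRCm38.p6, 5' to 3' on the gene's strand, ending before the gene start. The S100a8 sequence is chr3:90668821-90668977 on the plus strand and the S100a9 sequence is chr3:90695722-90695971 on the minus strand. Capitals mark matches to the letters of a TATA box (TATAAA), C/EBP site (TTGCNNAA), AP-1 site (TGANTCA) or PU.1 site (GAGGAA), searched on both strands.
S100a8: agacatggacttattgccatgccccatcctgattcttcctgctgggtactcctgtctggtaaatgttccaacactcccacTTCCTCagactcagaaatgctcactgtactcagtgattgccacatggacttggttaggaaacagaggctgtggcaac
S100a9: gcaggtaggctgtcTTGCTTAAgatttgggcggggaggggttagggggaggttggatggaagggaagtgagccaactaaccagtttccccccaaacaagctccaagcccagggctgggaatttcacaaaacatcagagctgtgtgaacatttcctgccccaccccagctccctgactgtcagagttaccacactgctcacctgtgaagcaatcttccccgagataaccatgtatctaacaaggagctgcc
The S100a8 sequence held 1 PU.1 match, on the opposite strand, and the S100a9 sequence 1 C/EBP match. The PU.1 letters occur in 23.3% and the C/EBP letters in 9.56% of all 32851 upstream sequences of 250 bases, of which that of S100a8 is a shorter one with 157 bases.

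The NADPH oxidase, to which calprotectin is known to deliver arachidonic acid in phagocytes, had another subunit balance in neutrophils than in monocytes. Over all 66 cells of the neutrophil gate, of its 5 subunit genes Ncf1 was higher in neutrophils by 2-fold or more and Cybb and Cyba were lower. Cybb, the catalytic subunit, was at 57.0 CPM in neutrophils and 708 in monocytes. Among receptors of extracellular S100 proteins, Tlr4 had 12 UMIs in neutrophils, 40.3 (20.8 to 70.3) CPM, an interval that overlapped the 29.4 (23.3 to 36.6) of Lyve1 macrophages. Ager, which encodes RAGE, was at 3.22 or less in every gate.

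S100a4, a myosin-binding protein linked to cell motility and metastasis, had 319-fold between its highest and lowest gate, the widest range of the 6 members detected in every gate. It was highest in migratory dendritic cells at 2137 (2074 to 2201) CPM and in Treg at 2117 (1947 to 2297), whose intervals overlapped. cDC2 followed at 1746 (1676 to 1819). Monocytes at 1479 (1385 to 1577) and Retnla Ear2 myeloid cells at 1458 (1438 to 1478) came next, with overlapping intervals. At the low end were neutrophils at 10.1 (2.08 to 29.4), or 14.3 (2.95 to 41.9) without the Epcam-positive cell, and tumor cells of the CD4/CD8 and CD11c matrices at 7.27 (5.49 to 9.44) and 6.70 (4.83 to 9.06). These 3 lowest levels were not distinguishable. S100a4 is often used as a fibroblast marker, and it was at 185 and 223 in the fibroblast gates of the CD11c and CD4/CD8 matrices.

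Between dendritic cells S100a4 differed most. cDC1, the cross-presenting type gated on Xcr1 and Clec9a, had S100a4 at 54.7 (49.2 to 60.7) CPM, 31.8-fold (28.5 to 35.8) below cDC2. The 6 runs of cDC1 lay between 25.2 and 112, and the 5 runs of cDC2 between 1489.6 and 1834, without overlap. In cDC1 91.0% of S100a4 UMIs were in 10% of the cells, and the level was 48.4 in cDC1 without a UMI of Cd209a, C1qa or Ccr7. S100a6 and S100a10 were also lower in cDC1 than in cDC2, by 7.56-fold (7.11 to 8.05) and 2.19-fold (2.03 to 2.35). S100a11 went the other way, at 1345 in cDC1 and 1034 in cDC2, 1.30-fold (1.23 to 1.38) higher, in 5 of 5 shared runs without overlap. In all, 3 of 6 measurable members were lower in cDC1 by 2-fold or more and 0 higher, beside 19.1% of all genes tested in either direction. The median fold of cDC1 over cDC2 was 0.660 for members and 0.965 for all genes.

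Migratory dendritic cells, gated on Ccr7 and Fscn1, shared the high S100a4 of cDC2 but not the S100a6. S100a6 was at 982 (940.1 to 1026) CPM against 1968 (1893 to 2045) in cDC2, 2.00-fold (1.89 to 2.12) lower, which lies at the limit for a call. S100a10 was at 361 (335 to 388) against 766 (719.9 to 815), or 2.12-fold (1.93 to 2.34) lower. Both were lower in 5 of 5 runs without overlap, and these 2 of 6 members compare with 27.8% of genes. S100a4 was 1.22-fold (1.16 to 1.29) higher in migratory cells, in 5 of 5 runs. S100a11 was at 1020.5 and 1034, with a ratio of 0.987 (0.922 to 1.06) that included 1.

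**Figure D3:**
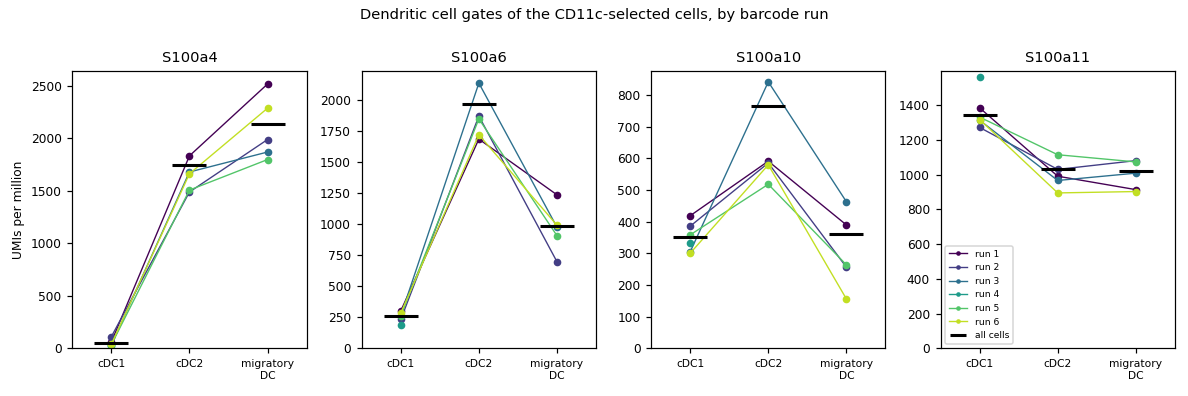
CPM of S100a4, S100a6, S100a10 and S100a11 in cDC1, cDC2 and migratory dendritic cells of the CD11c-selected cells. Coloured points and lines are barcode runs with at least 10 cells of the gate and black bars are all cells, and S100a4 lies between 25.2 and 112 in runs of cDC1 and between 1489.6 and 2518 in runs of the other gates.

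S100a6, or calcyclin, which binds annexins, had its 4 highest levels in stromal and epithelial cells. Fibroblasts of the CD4/CD8 matrix were at 5419 (5275 to 5567) CPM and those of the CD11c matrix at 3884 (3781 to 3989.8). Tumor cells of the CD4/CD8 matrix were at 4587 (4539.8 to 4636) and those of the CD11c matrix at 4014 (3965 to 4064). Run ranges overlapped among all 4 gates, with 1334 the lowest and 6964 the highest run. Tumor cells were uneven, since 10% of them held 65.3% and 63.1% of S100a6 UMIs in the CD11c and CD4/CD8 matrices, against 26.2% in fibroblasts of the CD4/CD8 matrix. Among immune cells S100a6 ranged from 255 (242 to 269) in other macrophages of the CD4/CD8 matrix to 2497 (2428 to 2568) in terminally exhausted CD8 cells. In neutrophils it was at 530.2 (451 to 619.6), and at 401 (319.9 to 497) without the Epcam-positive cell.

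S100a4 and S100a6 both lie on the plus strand, at 90603771 to 90606045 and 90612882 to 90624181, and tumor cells held the second with little of the first. In CD11c-selected cells S100a4 was 27.1-fold (19.9 to 39.2) lower in tumor cells than in fibroblasts, whereas S100a6 differed by 1.03-fold (1.00 to 1.06). Their upstream sequences, shown for this contrast, are chr3:90603520-90603769 for S100a4 and chr3:90612644-90612881 for S100a6, with capitals as before.
S100a4: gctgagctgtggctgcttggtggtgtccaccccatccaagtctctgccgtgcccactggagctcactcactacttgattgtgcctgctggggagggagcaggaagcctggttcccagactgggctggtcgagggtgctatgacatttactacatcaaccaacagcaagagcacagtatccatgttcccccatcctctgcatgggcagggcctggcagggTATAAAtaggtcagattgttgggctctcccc
S100a6: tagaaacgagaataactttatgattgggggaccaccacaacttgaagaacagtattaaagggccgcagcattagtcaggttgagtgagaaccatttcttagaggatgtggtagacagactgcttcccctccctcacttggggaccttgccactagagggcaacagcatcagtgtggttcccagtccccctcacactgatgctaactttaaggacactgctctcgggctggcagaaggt
The S100a4 sequence held 1 TATA box match, letters found in 12.4% of all upstream sequences, and the S100a6 sequence held no match to the 4 motifs.

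Other members also differed between tumor cells and fibroblasts of the CD11c matrix. S100a1 was higher in tumor cells by 3.06-fold (2.47 to 3.92) and S100a13 was lower by 2.51-fold (2.24 to 2.81), both in 3 of 3 shared runs without overlap. S100a8 was higher by 28.3-fold with 1 UMI added to each sum (interval without it 12.8 to 183), over only 3 UMIs in fibroblasts. The count of 4 of 7 members past 2-fold is to be read against 40.4% of all genes. S100a16 and S100a14, family members outside the 8, had patterns of their own. S100a16 was at 199 and 224 CPM in tumor cells and 313 and 402 in fibroblasts. S100a14 was at 42.6 and 57.9 in tumor cells and at 2.04 or less in fibroblasts.

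S100a10, also called p11, holds annexin A2 at the membrane and binds Ahnak. It was highest in Treg at 2135 (1964 to 2317) CPM, followed by Retnla Ear2 myeloid cells at 1838 (1815 to 1861) and fibroblasts of the CD4/CD8 matrix at 1831 (1748 to 1918), the latter pair with overlapping intervals. Only 34 cells were Treg, and the 2 runs with at least 10 of them gave 2052 and 2349.9. Conventional CD4 cells had 934 (892 to 977), so Treg were 2.29-fold (2.08 to 2.51) higher, in 2 of 2 shared runs without overlap. This was 1 of 5 measurable members past 2-fold, beside 13.8% of genes. The median fold was 1.63 for members and 1.10 for all genes, and S100a4 and S100a6 were 1.70-fold (1.55 to 1.86) and 1.63-fold (1.47 to 1.79) higher in Treg.

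Anxa2, its partner, did not follow that order. Anxa2 was at 126 CPM in Treg and 171 in conventional CD4 cells, whereas Retnla Ear2 myeloid cells had 1300.3, the highest of the 24 gates, and Ahnak was at 1564 there. Neutrophils were the lowest gate for S100a10, at 111 (76.2 to 156), and 38.2 (16.5 to 75.3) without the Epcam-positive cell. That is 6.29-fold (4.54 to 9.51) below monocytes, or 16.7-fold without the cell.

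S100a11, a partner of annexin A1, was high in cells of several lineages. Tumor cells of the CD4/CD8 matrix at 1379.8 (1354 to 1406) CPM, cDC1 at 1345 (1317 to 1374) and fibroblasts of the CD4/CD8 matrix at 1339 (1267 to 1413) had overlapping intervals. Neutrophils followed at 1168 (1048 to 1297), or 1294 (1144 to 1458) without the Epcam-positive cell, and were thus among the highest gates for S100a11 although they were among the lowest for S100a4, S100a10 and S100a13. The lowest levels were in Lyve1 macrophages at 119.7 (107 to 134) and other macrophages of the CD4/CD8 matrix at 132 (122 to 142). Anxa1 was at 1382 and 1526 in tumor cells but at 29.8 or less in every T cell gate, although S100a11 reached 765 in terminally exhausted CD8 cells.

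Monocytes exceeded other macrophages of the CD11c matrix in S100a4, S100a6, S100a10 and S100a11. The folds were 7.43-fold (6.92 to 7.96) for S100a4, 6.55-fold (6.13 to 6.97) for S100a6, 3.52-fold (3.18 to 3.86) for S100a10 and 3.23-fold (2.92 to 3.55) for S100a11. All 4 were higher in 5 of 5 runs without overlap, and 4 of 6 measurable members compares with 12.1% of genes. The median fold was 3.37 for members and 1.07 for all genes. The macrophage markers summed to 6415 CPM in monocytes and 23975 in other macrophages, so the gates do not separate fully. In other macrophages 90.5% of S100a4 UMIs were in 10% of the cells, whereas in Retnla Ear2 myeloid cells S100a4 was detected in 97.5% and S100a6 in 99.5% of cells.

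Within macrophages of the CD11c matrix, Gpnmb and Lyve1 cells differed most in S100a11 among the 6 measurable members. S100a11 was at 296 (283 to 309) CPM in Gpnmb and 119.7 (107 to 134) in Lyve1 macrophages, 2.46-fold (2.19 to 2.79) higher and in 6 of 6 runs, although the run ranges overlapped. This was 1 of 6 measurable members past 2-fold, beside 20.6% of genes. S100a4 and S100a6 were 1.93-fold (1.75 to 2.13) and 1.76-fold (1.64 to 1.90) higher in Gpnmb macrophages, each in 5 of 6 runs. S100a8, which was under the minimum of 20 CPM, was at 12.2 CPM in Gpnmb and 0.372 in Lyve1 macrophages, from 82 UMIs and 1 UMI (95% interval of the ratio 5.72 to 1311). S100a10 and S100a13 were lower in 6 of 6 runs, by 1.24-fold (1.17 to 1.32) and 1.39-fold (1.23 to 1.56).

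**Figure D4:**
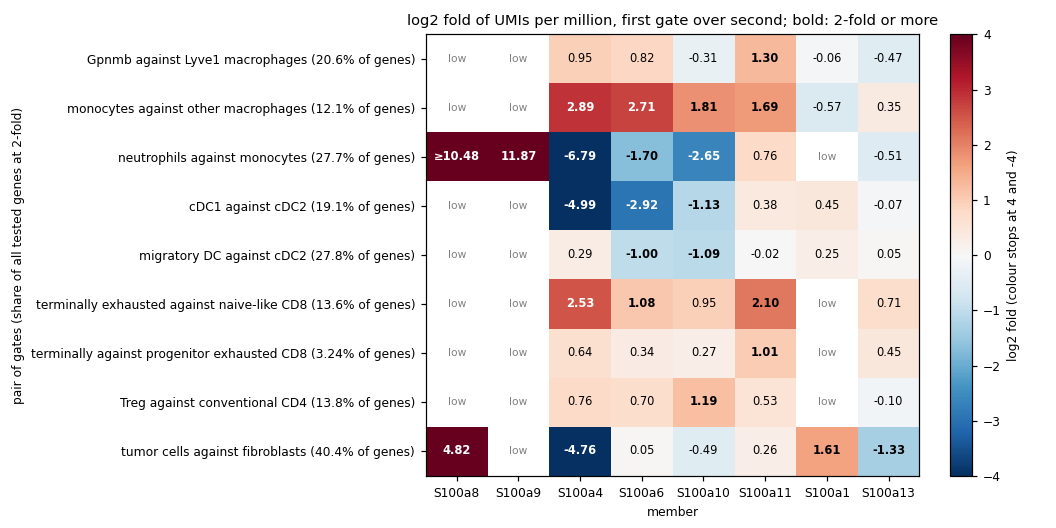
log2 fold of CPM between the first and the second gate of each pair, for the 8 members. Bold marks 2-fold or more, and "low" marks members with under 50 UMIs in both gates together or under 20 CPM in each. Percentages give the share of all tested genes past 2-fold. The S100a8 value of neutrophils against monocytes is set by a floor of 3 UMIs, since monocytes held 0 UMIs, and is not a 95% limit.

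CD8 T cells carried S100a4, S100a6, S100a10, S100a11 and S100a13, and had little of the other members. From naive-like (Ccr7 without Pdcd1, among other limits) over progenitor exhausted (Pdcd1 and Tcf7) to terminally exhausted (Pdcd1 and Havcr2) cells, all 5 were at successively higher levels over all cells. S100a4 was at 235 (220.3 to 251), 875 (855 to 896) and 1360.0 (1309 to 1412) CPM in these gates. S100a11 was at 178 (165 to 192), 379 (366 to 392) and 765 (727 to 804). The intervals of neighbouring gates did not overlap for either gene.

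Terminally exhausted exceeded naive-like cells 5.77-fold (5.36 to 6.24) in S100a4, 4.29-fold (3.92 to 4.71) in S100a11 and 2.12-fold (2.04 to 2.21) in S100a6. S100a10, at 1.93-fold (1.82 to 2.05), and S100a13, at 1.63-fold (1.47 to 1.82), did not reach 2-fold. For all 5 genes the terminally exhausted gate was higher in 6 of 6 runs and the run ranges did not overlap. The 3 of 5 members past 2-fold compare with 13.6% of genes, and the median fold was 2.12 for members and 1.27 for all genes. Anxa11 was past 2-fold among the 5 measurable annexin and Ahnak genes, at 59.5 and 26.2 CPM.

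Against progenitor exhausted cells, S100a11 alone passed 2-fold, at 2.02-fold (1.90 to 2.15), which is 1 of 5 members beside 3.24% of genes. It was higher in 6 of 6 runs, at 600.4 to 936 against 317 to 461 CPM. S100a4 was 1.55-fold (1.49 to 1.62) higher in 6 of 6 runs, with overlapping ranges of 931 to 1924 and 786 to 1001. S100a6, 1.27-fold (1.23 to 1.31) higher over all cells, was higher in only 3 of 6 runs.

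**Figure D5:**
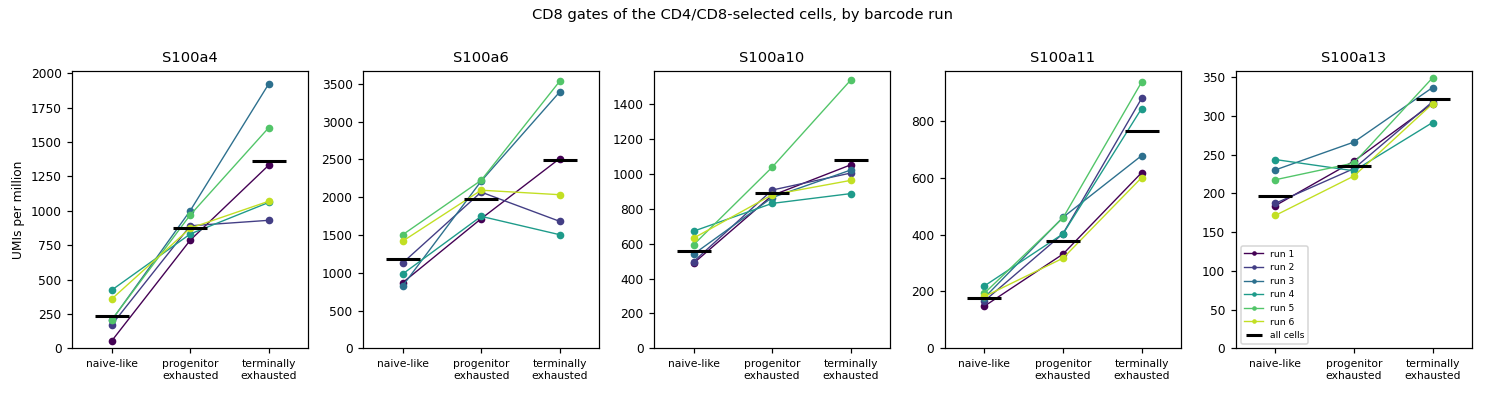
CPM of S100a4, S100a6, S100a10, S100a11 and S100a13 in naive-like, progenitor exhausted and terminally exhausted CD8 cells of the CD4/CD8-selected cells. Coloured points and lines are the 6 barcode runs and black bars are all cells, and S100a11 lies at 149 to 219.7 in naive-like and at 600.4 to 936 in terminally exhausted cells, whereas S100a6 is lower in terminally than in progenitor exhausted cells in 3 runs.

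Over all cells, Itgae and cycling CD8 cells lay on either side of progenitor exhausted cells in S100a4, at 805 (782 to 828) and 990.1 (973 to 1008) CPM. Their runs, at 656 to 995 and 685 to 1293, overlapped those of progenitor exhausted cells, at 786 to 1001. Cycling cells had S100a10 at 1004 (986 to 1021) and Itgae cells at 632 (612 to 653). Conventional CD4 cells had S100a4 at 1248 (1199.8 to 1298), with runs from 747 to 2726, and 259 of the 424 cells came from barcode run 1.

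S100a1, which regulates calcium release and contraction in muscle, was nearly absent from CD8 and conventional CD4 cells. It was highest in tumor cells, at 223 (212 to 234) CPM in the CD4/CD8 and 185 (174 to 196) in the CD11c matrix. Macrophage gates lay between 117 (109 to 125) in Gpnmb macrophages of the CD4/CD8 matrix and 47.5 (43.0 to 52.2) in Thbs1 macrophages of the CD11c matrix. CD8 and conventional CD4 gates lay between 2.98 and 12.3, and Treg were at 29.6 (12.8 to 58.3) with 8 UMIs. At 1000 UMIs per cell, S100a1 was found in 16.1% and 15.4% of tumor cells (76.7% and 69.4% unthinned) and in at most 1.09% of cells in the T cell gates (0.943% to 17.6% unthinned). The neutrophil level of 67.1 rested on 1 cell, and was 19.1 (5.20 to 48.9) without the Epcam-positive cell, on 4 of 20 UMIs.

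S100a13, which takes part in the release of Fgf1 and interleukin 1 alpha, was the most even member, with 5.30-fold between the highest and the lowest gate, neutrophils, at 87.3 (57.0 to 128) or 85.9 (50.9 to 136) without the Epcam-positive cell. Fibroblasts were highest at 462 (421 to 507) CPM in the CD4/CD8 and 347 (316 to 379) in the CD11c matrix. Terminally exhausted CD8 cells followed at 322 (297 to 348), an interval that overlapped the latter. S100a1 (90511034 to 90514392, minus strand) and S100a13 (90514435 to 90524581, plus strand) have 42 bases between them, yet T cell gates held S100a13 at 197 to 322 and S100a1 at 29.6 or less. Of the secretion partners, Fgf1 was at 57.0 and 45.0 in tumor cells and 26.2 and 12.2 in fibroblasts of the CD11c and CD4/CD8 matrices. Il1a reached 179 in other macrophages of the CD4/CD8 matrix and was at 0.513 or less in T cell gates.

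Across the 24 gates, S100a10 and S100a13 were the members most alike, with a Pearson r of 0.816 on log2(CPM + 1). S100a6 with S100a10 gave 0.768 and S100a8 with S100a9 0.729, and S100a4 with S100a8 was the most opposed pair at -0.724. These are descriptions over gates that share libraries and related cell types. S100a9 was at 17.7 CPM or less in every gate but neutrophils, so its correlations rest largely on that gate. Among 10395 genes, those most alike were Inppl1 (0.939) for S100a1, Atp2b4 (0.917), a calcium pump of the plasma membrane, for S100a4, Pdha1 (0.844) for S100a6 and Srebf1 (0.888) for S100a8. Further ones were Hdc (0.898), the histidine decarboxylase, for S100a9, Mapk9 (0.829) for S100a10 and Itm2a (0.851) for S100a13. Hdc was also on the marker list of neutrophils.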

How the data were processed

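Single cells were captured with the 10x Genomics platform. The deposited values are raw UMI counts per gene and barcode, which the authors placed in 1 matrix per bead selection, and the submitters' processing notes name Cell Ranger 3.0.2 and mm10. Barcodes with fewer than 200 detected genes were left out (341 and 295). Gates were set on raw UMIs of marker genes that are not members, and cells in several gates (226 and 147) were left out. No doublet caller was run. The planned edgeR comparison of genotypes was not run because barcodes name no sample. Counts were summed per gate. In the 9 gate pairs, genes with at least 50 UMIs in both gates together and 20 CPM in 1 of them were set against a 2-fold limit after 1 UMI was added, and the script was tested on simulated data. The text names the 8 members in every gate, genes of the lists (other S100 genes, annexins and Ahnak, receptors, NADPH oxidase, intracellular targets and secretion partners) and, for each member, the most alike gene with at least 500 UMIs. Some genes of the gates, lists and most alike genes are not reported here. The members and lists were chosen with earlier results of these data known. Positions are from GENCODE M21 (30431 of 31053 symbols matched), and RefSeq promoters were matched for 7 of the 8 members, not S100a10. Alternatives were another cell filter, other gate limits, means over cells, cells in several gates kept, another denominator, another thinning depth and leaving out barcode runs. Python 3.11.15, numpy 2.4.6, scipy 1.17.1, pandas 2.3.3 and matplotlib 3.10.9 were used.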

Additional observations from a re-analysis of the deposited data

How the results depend on the processing

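Of 104 alternative values for the highest CPM of each member, 86 were in the same gate as in the report, 61 lay within the Poisson interval of the reported level and 43 outside it. With the mean of the cells' own CPM the highest levels were S100a1 250.1, S100a4 2037, S100a6 5186, S100a8 9697, S100a9 16822 and S100a10 1831. With mitochondrial and ribosomal protein genes left out of the total they were S100a1 293, S100a4 2879, S100a6 6645, S100a8 7906, S100a9 13776, S100a10 2904, S100a11 1816 and S100a13 567, where Treg and not migratory dendritic cells were highest for S100a4 under both settings. With gate limits raised by 1 UMI they were S100a4 2056, S100a8 213, S100a9 13.1 and S100a10 1894, since fewer than 30 cells passed the neutrophil limits and tumor cells and Thbs1 macrophages then held the highest S100a8 and S100a9. Without the 5% of cells with the most UMIs, chosen after seeing the data, they were S100a4 2264, S100a6 5656, S100a8 10138 and S100a9 17837. Without immune cells that reached the tumor or fibroblast limits, also chosen after seeing the data, they were S100a4 2226, S100a8 9716 and S100a9 17036. Leaving out each barcode run in turn gave ranges of S100a1 202 to 229, S100a4 2117 to 2248, S100a6 4014 to 5904, S100a8 215 to 9778, S100a9 1.30 to 17107, S100a10 1838 to 2246, S100a11 1345 to 1472 and S100a13 410.5 to 480.1, and the lowest values of S100a8 and S100a9 were those without barcode run 6, which held most neutrophils. The cause of the other shifts was not tested.

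The S100a8 to S100a9 ratio of neutrophils was 0.568 to 0.576 over other cell filters and weights, and it could not be computed with raised limits. Leaving out barcode runs 1 to 5 in turn, chosen after seeing the data, gave 0.561 to 0.600, and without run 6 fewer than 30 neutrophils remained. The share of CD4/CD8-selected tumor cells with S100a8 was 6.28% at 500 UMIs per cell. No paired analysis was possible because the barcodes name no sample, so replicate numbers could not be linked to cells. Counting error is the only error given, and the small gates (neutrophils, monocytes, fibroblasts and Treg) and the low genes (S100a1, S100a8 and S100a9 outside neutrophils) are the least precise.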

Other observations

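Other genes tied to S100 proteins varied among gates in their own way, here over all cells of each gate. Cd14, a co-receptor of TLR4, was at 3081 CPM in Thbs1 macrophages, 2755 in monocytes and 1916 in neutrophils of the CD11c matrix. Between migratory dendritic cells and cDC2, the NADPH oxidase gene Ncf1 was higher by 2-fold or more, at 253 and 81.5, and Cybb and Ncf4 were lower, among 5 measurable subunits. In the same pair Anxa2 was higher, at 1024 and 458, and Anxa1, Anxa6 and Ahnak were lower, among 6 measurable annexin and Ahnak genes. Between Gpnmb and Lyve1 macrophages Anxa1 was higher, at 564 and 140.2, and Ahnak was lower, at 522 and 1398. Of 5 intracellular S100 targets, Myh9, the heavy chain of non-muscle myosin, was higher by 2-fold or more in neutrophils than in monocytes, at 658 and 294, and in tumor cells than in fibroblasts of the CD11c matrix, at 641 and 317. Tubb5 was lower in neutrophils than in monocytes, at 94.0 and 220.4, and the other 7 gate pairs had no target past 2-fold. Syt1, a partner of S100a13 in secretion, had 0 UMIs in all 24 gates.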
